A study of Mus musculus with 26 samples.

Results

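The initial segment (IS) is the first and most proximal segment of the mouse epididymis, and its RNA was compared between mice with a SUMOylation-deficient androgen receptor and wild-type (WT) mice. The comparison was set by the sample labels and covers every gene counted in 5 ArKI and 5 WT IS samples, which are 10 of the 26 samples of the series. Of 23337 genes in the count tables, 13434 had enough reads in the IS to be tested. ArKI mice carry the knock-in mutations K381R and K500R, which remove both lysines that accept SUMO, in every cell of the body. The neomycin cassette of the targeting construct had been taken out before the mice were bred. WT and ArKI mice were a hybrid of C57Bl/6N and 129, and all were 3 months old. The study also sequenced the caput, the next segment, from 5 mice of each genotype and the testis from 3 of each. IS and caput libraries shared a sequencing run, while the testis libraries were sequenced in another, so for these tissues the run and the tissue cannot be told apart.

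SUMO is a small protein that is attached to lysines of many transcription factors, and on the androgen receptor it changes which genes the receptor can act on. The IS receives sperm and fluid from the efferent ducts, whose lining holds cells with motile cilia next to absorptive cells. The IS itself is lined by tall secretory principal cells that depend on androgen and on factors in the testicular fluid, with narrow cells that acidify the lumen, basal cells on the basement membrane, a dense capillary network and a thin coat of smooth muscle.

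Total counts per IS sample ranged from 5829074 to 9770625, and 3 counts, taken as the smallest signal the depth can show, correspond to 0.313 to 0.512 CPM, the count scaled to library size by TMM. This limit covers counting error only. The 20 genes with the most counts took 17% to 20.1% of the reads of a sample. Between samples, the correlation of log2 CPM over tested genes was 0.9884 to 0.9911 within WT, 0.9751 to 0.9894 within ArKI and 0.9543 to 0.9745 between genotypes, so the ArKI samples were the more variable group. ArKI replicate 3 was the highest or lowest of its group in several of the lists below, and its values are given there. Values are means of CPM ± SD over 5 samples of a genotype, changes are log2 fold changes of ArKI over WT, and adjusted p values come from edgeR's quasi-likelihood test over all tested genes. "Rose" and "fell" are used for an adjusted p below 0.01, and "upregulated" or "downregulated" for those that also changed more than 2-fold.

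Counts per gene do not show the point mutations, so they do not check the genotype. Of 25 tested genes for androgen signalling and its coregulators, 2 rose and 5 fell, against 9.35% and 9.48% of all tested genes. The SUMO E3 ligases *Pias1* and *Pias2* rose by small amounts (0.34 and 0.26), and *Srd5a1*, which makes dihydrotestosterone from testosterone, fell from 69.2 ± 5.95 to 41.9 ± 3.31 CPM (log2 fold change -0.73). The glucocorticoid and mineralocorticoid receptor genes *Nr3c1* (-0.24) and *Nr3c2* (-0.58) and the coactivator gene *Ncoa3* (-0.27) were among those that fell.

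Across all 13434 tested genes, 9.35% rose and 9.48% fell, and 2.72% were upregulated and 1.32% downregulated. These shares are the background for every list. All 5 ArKI values lay above all 5 WT values in 9.53% of tested genes and below them in 10.5%. The large rises lay mostly in genes with few reads. Among the 3731 genes with a mean under 10 CPM, 260 were upregulated and 103 downregulated, whereas among the 1970 genes with a mean of 100 CPM or more, 14 were upregulated and 13 downregulated. The median log2 fold change over all tested genes was 0.

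**Figure D1:**
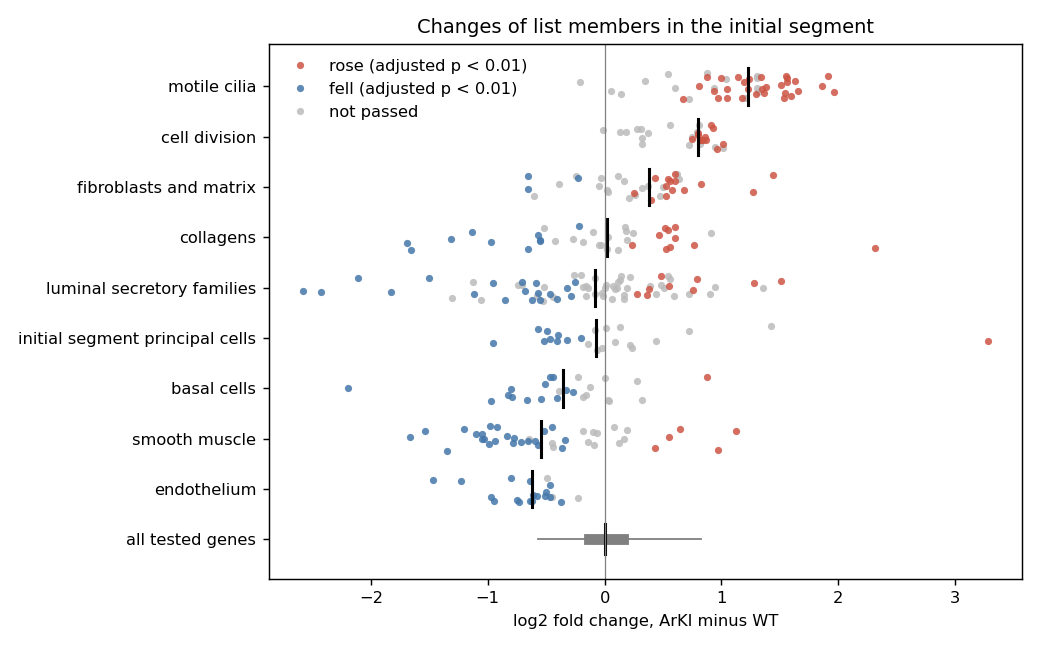
Log2 fold changes (ArKI over WT, x axis) of the tested members of the gene lists (rows), 1 point a gene, with a black bar at each list's median. Red points rose, blue points fell and grey points did not pass; the lowest row gives the 5th to 95th percentile (line) and the quartiles (bar) of all tested genes. Of 45 motile cilia members 44 lie to the right of 0 (median 1.23). Endothelial members all lie to its left (median -0.62), with smooth muscle (-0.54) and basal cells (-0.36) mostly to the left.

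Genes of motile cilia rose together in the ArKI IS. Of 48 genes on the list, 45 were tested, 30 rose and none fell by edgeR's test, and 24 of the 30 were upregulated. Below an unadjusted p of 0.05, 1 member (*Ccno*) was lower, and neither DESeq2 nor limma called a fall. The median log2 fold change was 1.23, and 44 of the 45 tested members had a positive value. In 25 of them all ArKI samples lay above all WT samples. The summed level of the list was 351 to 432 CPM in WT and 649, 473, 1075, 634 and 723 CPM in ArKI replicates 1 to 5. Replicate 3 was the highest and replicate 2 the lowest of the ArKI samples, and even replicate 2 was above the highest WT sample. The number that rose was 17 without WT replicate 1 and 16 without WT replicate 4, and 1 member fell without WT replicate 2 or ArKI replicate 2.

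The members that rose belong to several layers of a motile axoneme. *Ccdc39*, a ruler protein that sets the spacing of dynein arms, was 6.67, 11, 10.4, 9.67 and 12.5 CPM in WT and 26.7, 18.6, 48.0, 26.3 and 27.2 CPM in ArKI samples. Every ArKI sample was above every WT sample, and the rise was 1.54 on the log2 scale (standard error 0.27, adjusted p = 0.00217). *Ccdc39* shares 1256 exon bases with *Ttc14* on the opposite strand, and whether the counting used strand is not stated, so reads from this pair cannot be told apart. *Armc4*, *Ccdc114* and *Ccdc151*, which dock the outer dynein arms, rose by 1.86, 1.04 and 1.23. The dynein intermediate chains *Dnaic1* (1.14) and *Dnaic2* (1.04), the light chains *Dnali1* (1.38) and *Dynlrb2* (1.56) and the assembly factor *Zmynd10* (1.24) rose as well. Of 8 tested genes for axonemal dynein heavy chains, a family counted after its values were seen, *Dnahc9* (1.55), *Dnahc10* (1.38) and *Dnahc7b* (1.24) rose, and the median of all 8 was 1.23. With single samples left out, the call was lost in 4 of 10 fits for *Ccdc151*, in 6 for *Dnaic2* and *Dnali1* and in 7 for *Zmynd10*.

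The tektin *Tekt1*, a filament inside the ciliary microtubules, was 3.52, 5.37, 3.12, 3.13 and 4.80 CPM in WT and 11.5, 5.79, 22.5, 11.4 and 11.3 CPM in ArKI samples. The groups did not overlap, although the lowest ArKI value lay close to the highest WT value, and the rise on the log2 scale was 1.63 (standard error 0.33, adjusted p = 0.0038). *Spag6* and *Spef2* of the central apparatus rose by 0.94 and 1.59, and *Rsph1* of the radial spokes by 0.80. The nexin-dynein regulatory gene *Drc1*, listed in the counts as *Ccdc164*, rose by 1.34, and *Ccdc113* by 1.96. *Sntn*, a protein of the ciliary tip, rose from 4.74 ± 1.28 to 15 ± 6.24 CPM (log2 fold change 1.65). Members that did not pass included *Hydin* (1.20, adjusted p = 0.0108), *Rsph4a* (1.31, adjusted p = 0.0142) and *Rsph9* (0.14, adjusted p = 0.499), which were named after their values were seen. *Hydin* and *Rsph4a* lay above the WT range in all 5 ArKI samples, while *Rsph9* overlapped. *Tekt1* lost its call without WT replicate 1, 3 or 4, and *Rsph1* in 4 of 10 fits with a sample left out.

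Regulators of multiciliated cells gave mixed results. *Foxj1*, the master regulator of motile cilia, was 22.8, 29.8, 29.0, 29.2 and 35.9 CPM in WT and 60.5, 35.0, 126, 61.5 and 81.9 CPM in ArKI samples. Its values overlapped in ArKI replicate 2, and its log2 fold change of 1.31 did not pass (standard error 0.33, adjusted p = 0.0177). *Gmnc*, listed as *Gm606* and acting at the start of the multiciliated programme, rose from 1.85 ± 1.00 to 7.17 ± 3.62 CPM (log2 fold change 1.91, adjusted p = 0.00511), although its groups overlapped. *Rfx3*, a transcription factor that binds the X-box of ciliary promoters, rose by 0.67 (adjusted p = 0.00443). *Rfx2* stood at 0.35 (adjusted p = 0.0129) and was named after its value was seen. *Ccno*, needed for centriole amplification, was 89.1 ± 7.40 CPM in WT and 76.8 ± 7.92 CPM in ArKI samples (-0.21, adjusted p = 0.0289), the single member below 0. *Rfx3* lost its call in 4 and *Gmnc* in 5 of 10 fits with a sample left out.

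Promoters of the ciliary genes are shown because many hold the X-box, the motif of RFX factors, and *Rfx3* was among the genes that rose. The motif was searched as GTNNCCNNNGNNAC, on both strands, in RefSeq promoters of the build GRCm38.p6 from 250 bases before to 50 bases after the start. Of the 45 tested ciliary genes, 39 had such a promoter. The motif stood in 17 of their 48 promoters, or 35.4%, against 5.74% of 13649 promoters of tested genes and 4.62% of all 32851 promoters. It stood in 10 of 33 promoters of members that rose (30.3%) and in 7 of 15 of tested members that did not (46.7%). Among upregulated genes 11.1% of 350 promoters held it, and among downregulated genes 5.03% of 179. A match is a description of the letters and not evidence of a bound site. Windows of 90 bases are printed for *Tekt1* (chr11:72361883-72361972, minus strand), *Iqcg* (chr16:33056187-33056276, minus strand), *Kif9* (chr9:110476904-110476993, plus strand), *Ccdc114* (chr7:45924125-45924214, plus strand) and *Cfap126* (chr1:171122925-171123014, plus strand), all members that rose, with the motif in capitals and the gene's strand read 5′ to 3′.
Tekt1: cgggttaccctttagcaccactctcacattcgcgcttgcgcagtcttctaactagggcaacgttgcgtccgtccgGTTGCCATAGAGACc
Iqcg: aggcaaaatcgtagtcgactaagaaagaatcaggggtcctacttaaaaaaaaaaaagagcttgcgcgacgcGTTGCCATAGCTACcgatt
Kif9: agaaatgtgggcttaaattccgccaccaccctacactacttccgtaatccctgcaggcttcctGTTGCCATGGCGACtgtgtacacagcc
Ccdc114: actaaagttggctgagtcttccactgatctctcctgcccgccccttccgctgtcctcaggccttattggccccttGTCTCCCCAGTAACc
Cfap126: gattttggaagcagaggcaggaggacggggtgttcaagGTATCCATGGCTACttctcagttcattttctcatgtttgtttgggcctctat
In the first 4 of these windows the motif ended 1, 5, 13 and 1 bases before the start of the transcript, and in *Cfap126* 68 bases before it. In the same order the genes rose by 1.63, 1.19, 0.88 and 1.04, and *Cfap126*, listed as *1700009P17Rik*, rose by 0.99, a call lost in 7 of 10 fits with a sample left out.

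Several genes of the absorptive cells of the efferent ducts rose in the ArKI IS. The summed level of the 14 listed genes was 749 to 815 CPM in WT and 1032, 920, 1294, 1022 and 1106 CPM in ArKI replicates 1 to 5, so the groups did not overlap, and replicate 3 was again the highest and replicate 2 the lowest. Single members did not all keep this order, and *Dab2* was highest in ArKI replicate 2 (306 CPM) and *Car2* in replicate 4 (114 CPM). With the members weighted alike as means of log2(CPM + 0.5), the groups overlapped, at 3.44 to 3.75 in WT and 3.72 to 4.38 in ArKI samples. Of 10 tested members, 4 rose and none fell by edgeR's test, DESeq2 or limma, and none was lower at an unadjusted p below 0.05. The rises were *Dab2* (0.71) and *Slc9a3r1* (0.32), which serve uptake from the lumen, *Car2* (0.56), a carbonic anhydrase, and *Pax2* (0.69), a transcription factor of the tract. *Car2* is also on the narrow and clear cell list, and *Dab2* was higher in the WT caput (829 CPM) than in the WT IS (171 CPM). *Lrp2*, the endocytic receptor megalin, was 33.8, 46.3, 41.7, 37.7 and 61.1 CPM in WT and 88.5, 50.9, 227, 102 and 129 CPM in ArKI samples (log2 fold change 1.43, adjusted p = 0.0265), and *Esr1*, the oestrogen receptor, stood at 0.72 (adjusted p = 0.0325). Both were named after their values were seen, and neither passed. *Lrp2* is also on the list of IS principal cells. *Aqp1*, the water channel of the efferent ducts, was 108 ± 8.24 CPM in WT and 118 ± 38.2 CPM in ArKI samples and did not pass (0.13, adjusted p = 0.688). *Sult1d1*, a sulfotransferase gene that is on neither list, was also highest in ArKI replicate 3 and lowest in replicate 2, with 17.4, 12.4, 50.8, 21.7 and 31.9 CPM against 2.13 to 3.44 CPM in WT (log2 fold change 3.24, adjusted p = 0.000922). The part of efferent duct tissue in the rise of ciliary genes was not tested.

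**Figure D2:**
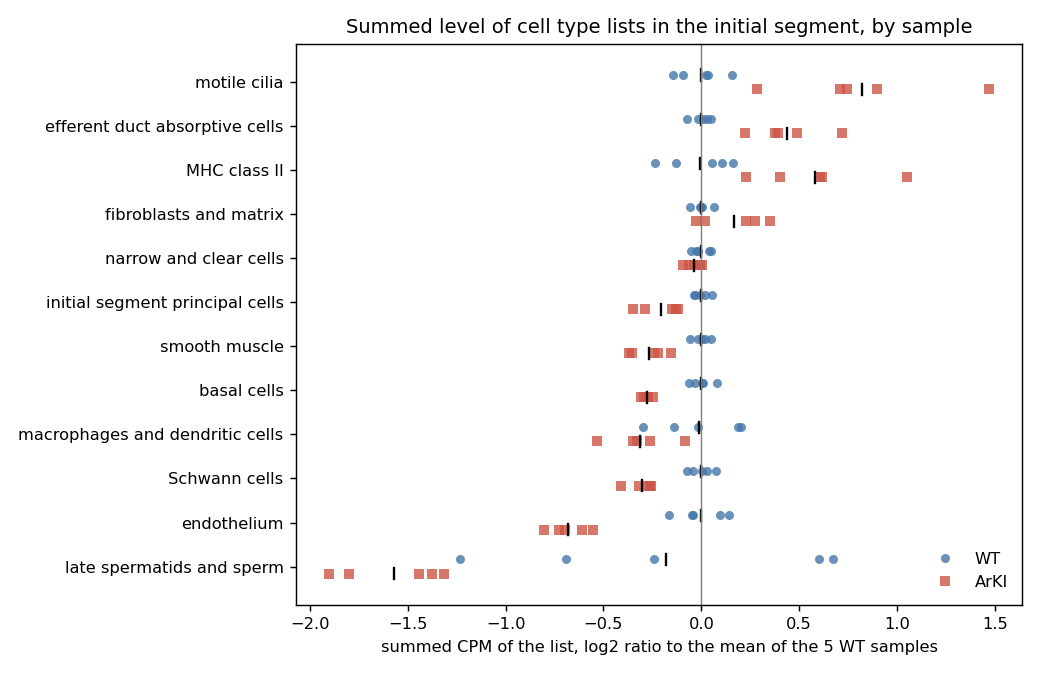
Summed CPM of 12 cell type lists (rows) in each IS sample, as the log2 ratio to the mean of the 5 WT samples (x axis), with WT as circles, ArKI as squares and a black bar at each group's mean. ArKI samples lie to the right of WT in motile cilia and efferent duct absorptive cells and to the left in endothelium, smooth muscle and basal cells.

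Testis-enriched genes were defined from WT samples outside the IS, as those whose mean CPM in the testis was 1 or more and 10 or more times that in the caput. They number 3295, of which 908 were tested in the IS. Of these 205 rose (22.6%, against 9.35% of all tested genes) and 44 fell (4.85%, against 9.48%; 107 without a filter on low counts), with 125 upregulated and 17 downregulated and a median of 0.27. Motile cilia and the sperm tail share an axoneme, and 33 of the 908 were on the motile cilia list, with 24 that rose. A further 17 were on the cell division list, with 10 that rose. The 858 genes on neither list held 171 that rose, 44 that fell, 105 upregulated and 17 downregulated, with a median of 0.22. In promoters of the 125 upregulated genes the X-box stood in 24.4%. When all counts of the 3295 genes were summed, WT samples ranged from 11350 to 12240 CPM and ArKI samples from 11580 to 15040 CPM, and the groups overlapped.

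The upregulated testis-enriched genes with the most reads in ArKI samples were of several kinds. *Ccdc39*, *Dnahc9*, *Ccdc108*, *Wdr78* and *Lrrc48* belong to axonemes. *Ccdc108* was 20.7 ± 4.81 CPM in WT and 59.9 ± 27.7 CPM in ArKI samples (1.52, adjusted p = 0.00939), and it did not pass under 12 of 17 alternative settings. *Zdhhc2*, a palmitoyltransferase gene, was 4.49, 3.20, 4.62, 6.68 and 4.28 CPM in WT and 30.1, 30.9, 34.5, 37.1 and 28.7 CPM in ArKI samples (2.80, standard error 0.13). *Nkx6-1*, a homeobox gene, was 0.427 to 1.67 CPM in WT and 16.6 to 26.3 CPM in ArKI samples (4.09). The toxin exporter *Slc47a2* (1.15), the adhesion receptor gene *Lphn3* (1.06), *Tmem56* (1.14), *4933430H15Rik* (1.67) and *Hdc* (1.54), which makes histamine, were the others. For *Zdhhc2*, *Nkx6-1*, *Slc47a2*, *Lphn3* and *Tmem56* the ArKI samples lay well above WT and replicate 3 did not stand out, whereas *Hdc* and the axonemal genes were highest in replicate 3 and lowest in replicate 2. With single samples left out, the call was lost in 6 of 10 fits for *Lrrc48* and *4933430H15Rik*, in 7 for *Hdc* and in 8 for *Ccdc108*.

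Genes of sperm had few reads in the IS. The late spermatid and sperm list held 36 genes, and 28 had too few reads to be tested. Of the 8 tested, *Prm2*, *Gsg1* and *Odf1* fell and *Spata18* rose (0.88). *Prm2*, the protamine that packs sperm DNA, was 10.2, 9.26, 23.2, 3.70 and 21.7 CPM in WT and 0.398, 0.706, 0.289, 1.54 and 1.06 CPM in ArKI samples. The ArKI values were near the level of 3 counts, and the WT values varied widely among themselves. The summed list was 38.1 to 143 CPM in WT and 24.0 to 36 CPM in ArKI samples. The genes *Prm1*, *Oaz3* and *Smcp*, named after their values were seen, were not tested; their means were 4.43, 4.52 and 5.63 CPM in WT and 0.207, 0.350 and 0.868 CPM in ArKI samples. RNA carried by sperm in the lumen and RNA of the tissue are counted together. The number of members that fell was 10 without WT replicate 4, 7 without any one of ArKI replicates 1, 2, 4 or 5, and 5 without ArKI replicate 3. It was 1 with voom and limma and 14 without a filter on low counts. *Spata18* lost its call in 9 of 17 alternatives, *Gsg1* without ArKI replicate 3 and *Odf1* without ArKI replicate 3 or 5. Of the germ cells in meiosis 3 listed genes were tested and *Rec8*, of the meiotic cohesin, rose (0.47). None of 4 tested Sertoli cell genes and 3 tested Leydig cell genes was called by edgeR, DESeq2 or limma. At an unadjusted p below 0.05, 1 Sertoli gene, *Wt1* (1.31, adjusted p = 0.0133), and 2 Leydig genes, 1 of them *Cyp11a1* (0.77, adjusted p = 0.0319), were higher and 1 Sertoli gene was lower. With single samples left out, 1 Sertoli gene rose without WT replicate 2 or ArKI replicate 1, 1 Leydig gene rose without ArKI replicate 3 and 1 meiotic gene fell without WT replicate 4 or ArKI replicate 4.

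Testis-enriched genes outside the sperm list fell too. *Cecr2*, a chromatin remodelling gene, was 26.6, 27.3, 29.6, 28.6 and 26.5 CPM in WT and 1.59, 2.54, 2.31, 2.22 and 2.00 CPM in ArKI samples (log2 fold change -3.70, standard error 0.12, adjusted p = 2.67e-14). Its WT values varied little, unlike those of *Prm2*. *Osbp2*, a sterol-binding protein gene, fell by 2.21 on the log2 scale, the acyl-CoA synthetase gene *Acsl6* by 2.12, the acrosomal gene *Dkkl1* by 1.40 and the ankyrin gene *Ank2* by 1.00. *Hk1*, the hexokinase gene, fell by 0.49 from 66.2 ± 3.38 CPM.

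**Figure D3:**
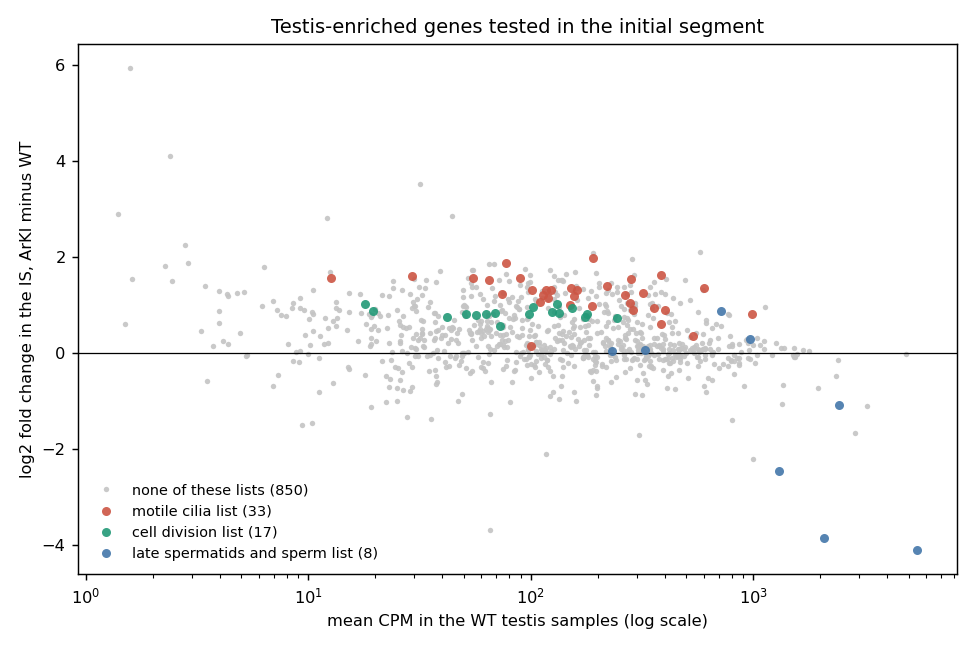
Log2 fold change in the IS (y axis, ArKI over WT) against the mean CPM in WT testis samples (x axis, log scale) for the 908 tested testis-enriched genes, with members of the motile cilia (red), cell division (green) and sperm (blue) lists coloured. The 33 ciliary genes lie above 0, and *Prm2*, *Gsg1* and *Odf1* lie far below it.

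Genes of dividing cells were higher in ArKI samples. Of 28 tested, 12 rose and none fell by edgeR's test, DESeq2 or limma, nor was any lower at an unadjusted p below 0.05. The median was 0.80. The mitotic motor *Kif20a* (1.01), the spindle midzone protein *Prc1* (0.84), the cyclins *Ccna2* (0.91) and *Ccnb2* (0.92), the kinase genes *Cdk1* (0.75), *Aurkb* (0.86) and *Plk1* (0.80) and *Cdc20* (0.83) were among the 12. *Prc1* was 12.1, 9.49, 12.4, 11.8 and 10.2 CPM in WT and 21.0, 13.5, 26, 21.4 and 18.5 CPM in ArKI samples, again with ArKI replicate 2 lowest. *Mki67*, the common marker of proliferation, had 27.5 ± 6.84 and 52.7 ± 16.7 CPM (0.94, adjusted p = 0.0291), and *Top2a* was named after its value was seen (0.72, adjusted p = 0.0299), so neither passed. The count of members that rose depended on single libraries. It was 21 without ArKI replicate 2, 7 without ArKI replicate 1, 6 without ArKI replicate 4, WT replicate 1 or WT replicate 5, and 5 without WT replicate 2. *Aurkb* lost its call in 3 and *Cdk1* and *Plk1* in 7 of 10 fits with a sample left out.

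Smooth muscle genes fell as a group. Of 40 tested, 23 fell and 5 rose, 8 were downregulated and the median was -0.54. In 21 members no ArKI value reached the lowest WT value, against 10.5% of all tested genes. *Myh11*, the smooth muscle myosin heavy chain, was 186, 194, 183, 190 and 188 CPM in WT and 132, 93.5, 68.3, 84.9 and 81.4 CPM in ArKI samples (-1.03, standard error 0.15, adjusted p = 0.000966). WT values varied little, and ArKI replicate 1 was nearest to them. *Acta2*, the vascular and visceral smooth muscle actin, had 201 to 232 CPM in WT and 89.4 to 166 CPM in ArKI samples (-0.93). *Actg2*, the enteric actin, had 3082 ± 97.4 and 2885 ± 213 CPM and did not pass (-0.10, adjusted p = 0.176). In bulk tissue, fewer cells of a type and less RNA per cell cannot be told apart.

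The thin-filament genes *Cnn1* (-1.10), *Tpm2* (-1.05) and *Tagln* (-0.98), the myosin light chain gene *Myl9* (-0.92) and its kinase gene *Mylk* (-0.36) fell, as did the intermediate filament gene *Des* (-0.79). *Myocd*, the coactivator of serum response factor that drives the contractile programme, was 1.5 to 2.29 CPM in WT and 0.342 to 1.13 CPM in ArKI samples (-1.54, adjusted p = 0.00182). The largest fall was that of *Itga8* (-1.67), an integrin subunit, followed by *Myocd* and the actin-associated *Synpo2* (-1.35). Of the nitric oxide and cGMP pathway, which relaxes smooth muscle, the phosphodiesterase gene *Pde5a* (-1.05) and the kinase substrate gene *Mrvi1* (-1.20) fell while the guanylate cyclase gene *Gucy1a3* rose (0.97). Both subunit genes of the calcium-activated potassium channel BK, *Kcnma1* (0.55) and *Kcnmb1* (1.13), rose, and so did *Pdlim3* (0.65) and *Pdlim7* (0.43), of the cytoskeleton. *Kcnma1* lost its call in 7 of 10 fits with a sample left out. The summed list was 5217 to 5607 CPM in WT and 4199 to 4877 CPM in ArKI samples, a ratio of 0.832. *Actg2* made up 56.8% of the WT sum, and without it the sums were 2237 to 2533 and 1529 to 1833 CPM, a ratio of 0.694.

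The CArG box, the motif of serum response factor, was found in 3 of 45 promoters of tested smooth muscle genes (6.67%), against 1.27% of promoters of tested genes. The 3 promoters belong to 2 genes, and of the members that fell 1 of 25 promoters held the box (4%). This one is that of *Myl9*, which fell with its kinase, and is shown for that. The window lies at chr2:156775265-156775354 (GRCm38.p6, plus strand), and capitals mark the CArG box, which ends 151 bases before the start.
Myl9: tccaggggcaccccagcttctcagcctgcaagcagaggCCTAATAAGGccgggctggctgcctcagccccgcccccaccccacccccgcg
Its level was 100, 90.3, 101, 102 and 85.3 CPM in WT and 70.6, 50, 43.8, 48.3 and 40.2 CPM in ArKI samples, without overlap.

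Basal cell genes fell as well. Of 24 tested, 13 fell and 1 rose, and the median was -0.36. *Trim29*, a basal epithelial gene, was 63.3, 64.4, 63.9, 59.6 and 57.0 CPM in WT and 13.3, 12, 11, 21.4 and 11.1 CPM in ArKI samples (-2.19, standard error 0.13, adjusted p = 5.78e-08). *Krt5*, the basal keratin, was 82.6, 80.1, 75.9, 71.8 and 69.6 CPM in WT and 53.6, 57.9, 35.4, 47.0 and 46.1 CPM in ArKI samples (-0.66, adjusted p = 0.00039). Neither gene overlapped between groups. The hemidesmosome genes *Dst* (-0.79), *Col17a1* (-0.97), *Itgb4* (-0.47) and *Itga6* (-0.27) all fell, and of the laminin genes *Lamb3* fell (-0.51) and *Lama3* rose (0.87). *Ngfr*, a nerve growth factor receptor gene, fell by 0.80 on the log2 scale, and *Egfr*, the epidermal growth factor receptor gene, by 0.44. *Ngfr* lost its call in 11 of 17 alternatives and *Itga6* in 9. The lineage factor *Trp63* was 145 ± 4.85 and 128 ± 11.9 CPM and did not pass (-0.18, adjusted p = 0.0173). The keratins *Krt14* (-0.39, adjusted p = 0.167) and *Krt15* (0.28, adjusted p = 0.0711) did not pass and were named after their values were seen. Summed, the list was 1560 to 1723 CPM in WT and 1317 to 1374 CPM in ArKI samples.

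**Figure D4:**
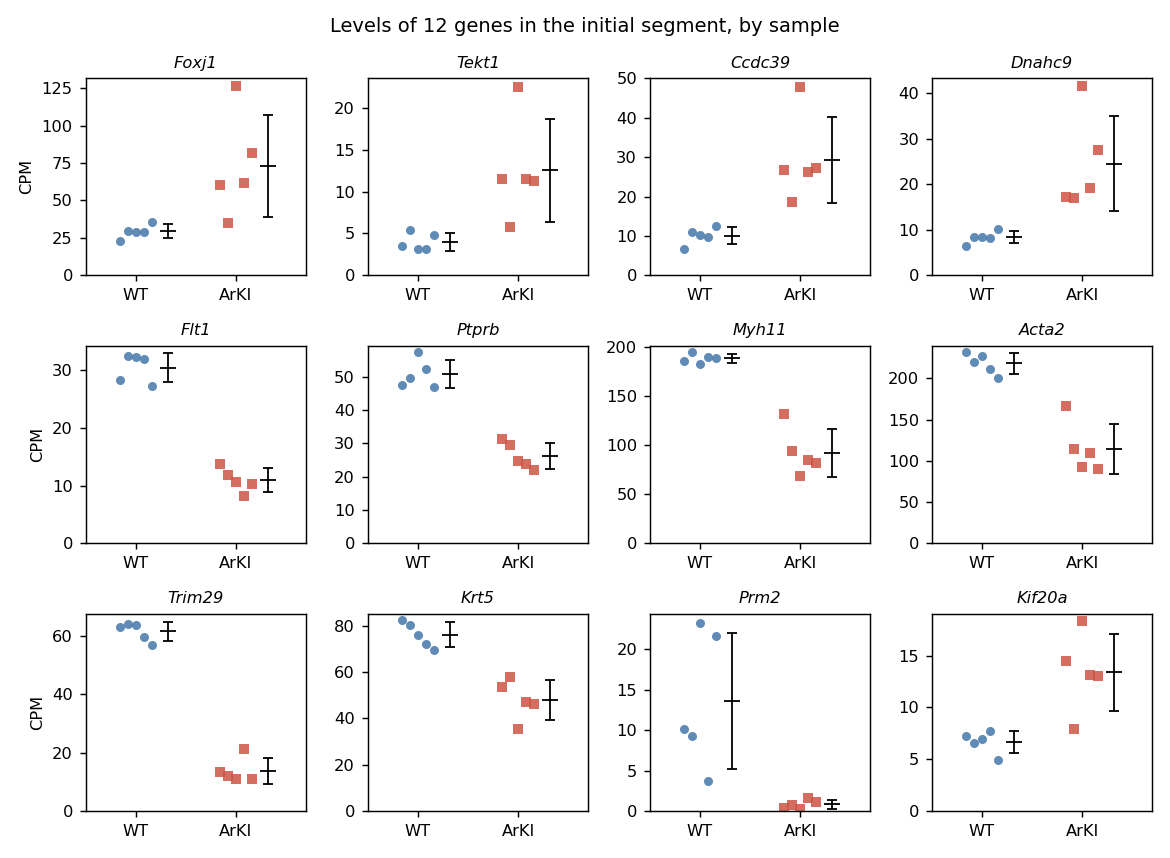
CPM (y axes from 0) of 12 genes in each of the 5 WT (circles) and 5 ArKI (squares) IS samples, drawn from replicate 1 to 5, with the group mean and SD beside them. ArKI points lie below all WT points for *Flt1*, *Myh11*, *Trim29* and *Krt5*, and above them for *Ccdc39* and *Dnahc9*, with replicate 3 highest in both.

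Collagen genes changed in both directions. Of 35 tested, 10 rose and 10 fell (28.6% each), and 15 did not pass, with a median near 0 (0.03). The genes of the basement membrane collagen IV fell, namely *Col4a1* (-0.55), *Col4a2* (-0.57), *Col4a5* (-1.13) and *Col4a6* (-1.65), as did *Col17a1* and *Col7a1* (-0.55), which anchor epithelium. *Col4a6* was 19.6 to 23.2 CPM in WT and 5.05 to 8.46 CPM in ArKI samples, without overlap. *Col12a1* (-1.69) and *Col14a1* (-0.66), which associate with collagen fibrils, also fell. The fibril collagen genes *Col1a1* (0.60), *Col1a2* (0.61) and *Col3a1* (0.54) rose, and *Col11a1* rose from 8.11 ± 0.699 to 40.8 ± 5.13 CPM (2.32, standard error 0.10, adjusted p = 1.54e-12). *Col6a4* rose from 994 ± 99.8 to 1373 ± 156 CPM (0.47). Without WT replicate 2 the number that rose was 6, and *Col3a1* lost its call in 11 of 17 alternatives.

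Endothelial genes gave the highest share of falls among the cell type lists. Of 20 tested, 17 fell and none rose by edgeR's test, DESeq2 or limma, all 20 had a negative log2 fold change, and the median was -0.62. No member was higher at an unadjusted p below 0.05. The summed list was 405 to 500 CPM in WT and 309, 296, 273, 279 and 259 CPM in ArKI replicates 1 to 5. *Flt1*, a VEGF receptor gene, was 28.4, 32.5, 32.3, 32 and 27.2 CPM in WT and 13.8, 11.8, 10.5, 8.20 and 10.2 CPM in ArKI samples (-1.47, standard error 0.11, adjusted p = 5.28e-09). The other VEGF receptor gene on the list, *Kdr*, fell by 0.58 on the log2 scale. The arterial factor gene *Sox17* (-1.23), *Sox18* (-0.73), the phosphatase gene *Ptprb* (-0.95), the TGF-beta coreceptor gene *Eng* (-0.75) and *Cd93* (-0.97) fell. The pan-endothelial genes *Pecam1* (-0.37), *Cdh5* (-0.47), *Tie1* (-0.51) and *Vwf* (-0.62) and the capillary gene *Plvap* (-0.64) fell less. The number that fell ranged from 15 to 18 with single samples left out, and the call of *Sox18* was lost in 4 and that of *Pecam1* in 7 of these 10 fits.

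Fibroblast and matrix genes rose more often than they fell. Of 34 tested fibroblast and matrix genes, 14 rose and 3 fell, with a median of 0.38. *Dpt*, of the fibroblast matrix, rose from 11.5 ± 1.19 to 31.1 ± 2.90 CPM (1.44), *Igf1*, a growth factor gene, from 17.1 ± 2.05 to 41.3 ± 8.14 CPM (1.27), and *Cd34* (0.82) and *Vim* (0.53) rose. *Pdgfra* fell by 0.23 on the log2 scale, and *Fbln5*, of elastic fibres, by 0.65. Without ArKI replicate 2 the number that fell was 6. Of 28 tested macrophage and dendritic cell genes, none rose by edgeR's test, DESeq2 or limma, 2 were higher at an unadjusted p below 0.05, and 4 fell, with a median of -0.20. Without WT replicate 4, 1 member rose. The number that fell was 7 with the replicate number as a block and 3 with library size only. The summed list was 679 to 961 CPM in WT and 576 to 787 CPM in ArKI samples, and the groups overlapped. The members that fell were *Cx3cr1* (-0.68), *Csf1r* (-0.54), *Itgam* (-0.49) and *Emr1* (-0.52). *Cx3cr1*, a receptor of the dense phagocyte net of this segment, was 28.4 to 36 CPM in WT and 17.4 to 23.2 CPM in ArKI samples. *Emr1* lost its call in 8 of 10 fits with a sample left out.

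MHC class II genes, which present antigen, gave 3 rises and 1 fall among 9 tested. *Cd74* (0.92), *H2-Aa* (1.00) and *H2-Ab1* (0.94) rose and *H2-DMa* fell (-0.53). *H2-Ab1* was 34.2, 40.1, 36.5, 36.8 and 30.8 CPM in WT and 61.0, 48.5, 94.5, 68.3 and 70.0 CPM in ArKI samples, once more with replicate 3 highest and replicate 2 lowest. The count of rises was 1 when any one of the 5 WT replicates or of ArKI replicates 1, 4 or 5 was left out, and also 1 with the replicate number as a block. Without ArKI replicate 3, 2 members fell. Of 6 tested T and NK cell genes 1 fell, and no B cell gene was tested. The T and NK sum was 77.7 to 91.4 CPM in WT and 53.6 to 75.1 CPM in ArKI samples, without overlap. Most of it was *Zap70*, the gene that fell, named after its value was seen, with 70.8 CPM in WT and 48.3 CPM in ArKI samples (-0.56). With the members weighted alike as means of log2(CPM + 0.5) the groups overlapped, and 3 of the 6 tested members were positive and 3 negative. Schwann cell genes gave 3 falls among 7 tested, *Egr2* (-0.32), *Pmp22* (-0.52) and *Ngfr*, which is also a basal gene, and 1 member rose without ArKI replicate 3. Neutrophils and adipocytes had 1 and 2 tested genes and no call by edgeR, although DESeq2 and limma each called 1 adipocyte gene higher, as did edgeR without WT replicate 1.

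Genes with many reads fell more often than they rose, mostly by small factors. Of 2093 tested genes with a mean of at least 100 CPM in either genotype, 212 rose (10.1%) and 394 fell (18.8%, against 9.48% of all tested genes), 17 were upregulated and 18 downregulated, and the median was -0.03. Of the 15 genes with the most reads, 2 rose and 5 fell. *Adam7*, a membrane protein gene of the epididymis, rose from 15660 ± 315 to 21810 ± 1672 CPM (0.48), and *Cst11*, a cystatin, from 5546 ± 169 to 7148 ± 944 CPM (0.37). *Lcn8* was 13100, 13920, 13760, 14340 and 13320 CPM in WT and 9266, 9396, 10060, 11490 and 9332 CPM in ArKI samples (-0.47, standard error 0.06, adjusted p = 3.82e-06). *Lcn9* (-0.40), also a lipocalin carrier of lipids, *Mfge8* (-0.63), a lectin that coats sperm, *Rnase10* (-0.32), a catalytically inactive ribonuclease, and *Gm4846* (-0.65) fell with it. *Gpx5*, the secreted glutathione peroxidase and the gene with the most reads, was 44460 ± 3366 and 49010 ± 8278 CPM (0.14, adjusted p = 0.375). *Spag11b*, *Lcn2*, *Defb20*, *9230104L09Rik*, *Itm2b*, *Adam28* and *Defb48* did not pass either, with log2 fold changes from -0.21 to 0.56.

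Among the genes of at least 100 CPM, the largest rises were led by *Stc2*, a secreted glycoprotein gene of the stress response. It was 3.40, 3.20, 4.24, 2.42 and 5.01 CPM in WT and 102, 95, 113, 107 and 89.5 CPM in ArKI samples (4.76, standard error 0.11). *Abcb5*, a transporter, rose by 3.46. *Tgm2*, a transglutaminase that crosslinks proteins, was 246, 241, 229, 247 and 221 CPM in WT and 1356, 1148, 1256, 1068 and 1307 CPM in ArKI samples (2.38, standard error 0.06, adjusted p = 2.93e-15). *Tgm2* shares exon bases with *Gm20412* and *Rprd1b* on the opposite strand. The peptidase gene *Dpp4* (2.10), *Rbfox3* (1.60), the alcohol dehydrogenase gene *Adh1* (1.56), the guidance factor gene *Sema3d* (1.46), the lipocalin gene *Lcn6* (1.28) and *Vip* (1.21) followed. *Vip* lost its call in 5 of 10 fits with a sample left out.

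The largest fall among them was that of *Tecta*. It codes for the matrix protein tectorin alpha and was 305, 307, 352, 328 and 214 CPM in WT and 41.1, 31.6, 42.2, 39.6 and 39.6 CPM in ArKI samples (-2.95, standard error 0.15, adjusted p = 4.32e-07). *Crisp1*, a sperm-binding protein gene, was 2086, 2327, 2361, 2339 and 1369 CPM in WT and 390, 472, 363, 238 and 290 CPM in ArKI samples (-2.58). In both genes WT replicate 5 was the lowest of its group and still far above every ArKI sample. The neurotensin receptor gene *Ntsr1* (-2.52), *Cryba4* (-2.10), *Gpnmb* (-1.72), the apolipoprotein gene *Apod* (-1.65), the uroplakin gene *Upk1b* (-1.60), the cystatin gene *Cst12* (-1.5), the scaffold gene *Pdzk1* (-1.40) and *2510009E07Rik* (-1.35) completed the 10. *Ntsr1* was 119 to 162 CPM in WT and 20.5 to 27.2 CPM in ArKI samples.

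**Figure D5:**
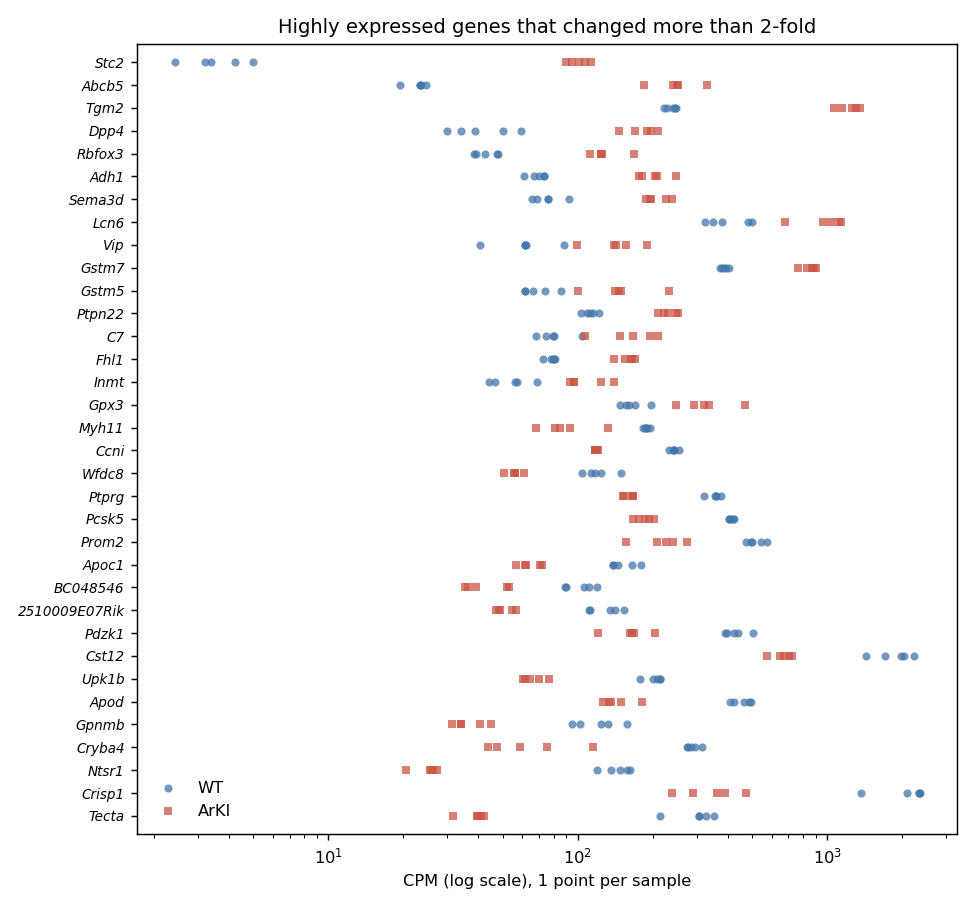
CPM in each of the 5 WT (circles) and 5 ArKI (squares) IS samples (x axis, log scale) for 16 upregulated and 18 downregulated genes with at least 100 CPM in either genotype, ordered by log2 fold change from *Stc2* at the top to *Tecta* at the bottom. Points of the 2 genotypes stay apart in each row, and 1 further upregulated gene, whose groups overlapped, is not drawn.

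Some genes of the secretory programme of the IS were lower. Of 22 tested genes of IS principal cells, 9 fell and 1 rose (2 without ArKI replicate 2), and the median was -0.07. The summed list was 64650 to 68920 CPM in WT and 59770, 60750, 52180, 61100 and 54470 CPM in ArKI replicates 1 to 5, with replicate 3 now the lowest. With the members weighted alike as means of log2(CPM + 0.5), the list was not lower, at 8.195 in WT and 8.207 in ArKI samples, and the groups overlapped. *Cst8*, a cystatin (-0.57), *Ovch2*, a protease-like gene needed for sperm maturation (-0.52), and *Enpep*, an aminopeptidase (-0.96), fell beside *Lcn8*, *Lcn9* and *Rnase10*. *Ros1*, the receptor kinase needed for the IS to form, was 591 ± 35.7 and 626 ± 33.0 CPM and did not pass (0.08, adjusted p = 0.219), and *Cyp4a12a* rose (3.28). Over the families of luminal proteins (lipocalins, defensins, cystatins, Crisp, Wfdc, ribonucleases and others), 19 of 71 tested fell and 9 rose. *Wfdc6b* (-2.11), *Crispld1* (-1.83), *Wfdc8* (-1.12) and *Crisp4* (-0.71) were among the falls, and *Defb6* (1.51), *Crispld2* (0.79) and *Wfdc2* (0.75) among the rises.

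Targets of ERK, the kinase that luminal factors keep active in this segment, gave 6 falls and 2 rises among 20 tested, with a median of -0.11. The phosphatase genes *Dusp5* (-0.84) and *Dusp6* (-0.49), the ETS factor genes *Etv4* (-0.40) and *Etv5* (-0.20) and *Phlda1* (-0.52) fell, and *Ccnd1* (0.47) and *Spry1* (0.19) rose. *Dusp6* was 268, 286, 344, 294 and 310 CPM in WT and 213, 200, 234, 231 and 189 CPM in ArKI samples, without overlap. These changes were small next to those of the ciliary genes.

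Genes for detoxification rose more often than they fell. Of 34 tested antioxidant genes, 11 rose and 3 fell. The glutathione transferase gene *Gstm7* was 372 to 404 CPM in WT and 765 to 901 CPM in ArKI samples (1.14, standard error 0.05, adjusted p = 1.54e-12), and *Gstm5* (1.13), *Gstm1* (0.66), *Gsta3* (0.61) and *Mgst1* (0.41) rose with it. *Gstm5* lost its call in 7 of 10 fits with a sample left out. *Gstm2* (-0.39), the quinone reductase gene *Nqo1* (-0.48) and *Gclc* (-0.22) fell. Mu-class transferases are close in sequence, so the share of each in the counts is uncertain. *Gpx3*, the extracellular peroxidase gene, rose from 166 ± 18.3 to 333 ± 82.3 CPM (1.01). Of 6 tested sulfotransferase genes 3 rose, among them *Sult1e1* (4.46), which inactivates oestrogen, and *Sult2b1* fell (-0.83). Of 25 tested cytochrome P450 genes 3 rose (12%) and 2 fell (8%), near the shares of all tested genes. Among the falls was *Cyp26b1*, which degrades retinoic acid (-1.76), and 5 genes rose without ArKI replicate 3.

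Several lists of ion and water transport held more rises than falls. Of 22 tested genes of luminal fluid transport 5 rose (22.7%) and 1 fell, the fall being lost without WT replicate 3. The epithelial sodium channel gene *Scnn1b* was 3.03, 2.74, 2.00, 3.56 and 2.82 CPM in WT and 16.3, 10.4, 13.7, 11.3 and 12.1 CPM in ArKI samples (2.18, standard error 0.17, adjusted p = 1.13e-08), and its partner *Scnn1a* rose by 0.39. Of 35 tested potassium channel genes 9 rose (25.7%) and 4 fell. *Kcnc4* rose from 4.01 ± 0.596 to 25.6 ± 3.61 CPM (2.68) and *Kcna1* fell from 7.60 ± 1.62 to 1.62 ± 0.357 CPM (-2.21). In narrow and clear cells 5 of 14 tested genes (35.7%) rose and 2 fell, with *Slc4a9*, a bicarbonate exchanger, at 2.24 and proton pump subunits in both directions (*Atp6v0a4* 0.87, *Atp6v0d2* -0.33), and 3 rose without WT replicate 1, 3 or 4. Solute carriers gave 25 rises and 39 falls (16.7%) among 233 tested, and ABC transporters 4 rises and 6 falls (17.6%) among 34.

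Claudin genes gave 1 rise, *Cldn2* (0.27), and 4 falls (28.6%) among 14 tested, with 2 rises without WT replicate 5 or ArKI replicate 2. *Cldn4* was 220 to 290 CPM in WT and 130 to 144 CPM in ArKI samples (-0.84). Hox genes, which set position along the tract, gave 7 rises (24.1%) and 3 falls (10.3%) among 29 tested, with *Hoxa9* (1.02) and *Hoxa10* (1.15) upregulated and *Hoxb1* (-0.76) and *Hoxc8* (-0.83) lower. *Hoxa10* was 6.40 to 9.95 CPM in WT and 15 to 22.3 CPM in ArKI samples.

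Of 82 tested genes of oxidative phosphorylation 4 rose (4.88%) and 1 fell (1.22%), against 9.35% and 9.48% of all tested genes. The rises were 2 without WT replicate 3, WT replicate 5 or ArKI replicate 2. Of 63 cytosolic ribosomal protein genes 3 fell (4.76%), led by *Rplp0* (-0.37). The unfolded protein response gave 2 falls among 24 tested (8.33%), among them *Ern1* (-0.47), its sensor kinase. In the integrated stress response 5 of 39 rose and 5 fell (12.8% each), and 3 rose without any one of WT replicates 2 to 5 or ArKI replicates 4 or 5. *Stc2*, the serine synthesis genes *Psat1* (0.97) and *Phgdh* (0.87) and the regulators *Nupr1* (0.68) and *Atf5* (0.29) rose, while the amino acid transporter gene *Slc7a5* fell from 1971 ± 56.9 to 1453 ± 106 CPM (-0.44). Cholesterol synthesis gave 4 falls among 23 tested (17.4%, against 9.48% of all tested genes; 20 of the 23 had a negative value), including *Pmvk* (-0.75), and 2 without WT replicate 1 or 5 or ArKI replicate 1 or 5. Interferon genes gave 1 rise (3.12%) and 3 falls (9.38%) among 32, with *Rsad2*, an antiviral gene, at -1.30. In necroptosis and pyroptosis 2 of 17 rose (11.8%), *Birc3* (0.33) and *Ripk3*, a kinase gene of necroptosis. *Ripk3* rose from 0.922 ± 0.472 to 18.8 ± 2.32 CPM (4.34). The number of members that rose was 1 without WT replicate 2 or 5 or ArKI replicate 1 or 5. Without ArKI replicate 1, *Ern1* lost its call and the unfolded protein response had 1 fall. *Atf5* lost its call in 7 of 10 fits with a sample left out.

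The caput of the same genotypes, added for comparison after the IS values were seen, shows which of these patterns differed between segments. In the caput 8.62% of 13726 tested genes rose and 9.36% fell. The interaction of segment and genotype, fitted with edgeR over all 20 epididymal samples, gave an ArKI effect that was higher in the IS for 4.23% of 14329 genes and lower for 3.95%. The study's methods collect both segments from 5 mice of each genotype, but the labels do not say which samples share a mouse, and the fit treated all as separate. Of 22 motile cilia genes tested in the caput none rose and 6 fell by edgeR's test, with 1 higher and 12 lower at an unadjusted p below 0.05. The interaction was higher in the IS for 20 of 46 and lower for none, also at an unadjusted p below 0.05. Only 22 genes of the list had enough reads to be tested in the caput alone. *Armc4*, for example, was 0.198 CPM in WT and 0.113 CPM in ArKI caput samples. The summed list in the caput was 270 to 290 CPM in WT and 216 to 265 CPM in ArKI samples, where the IS sums had gone the other way. Testis-enriched genes gave 91 rises and 213 falls in the caput, and the interaction was higher in the IS for 142 of 1154 and lower for 27. The WT caput samples that helped define this list are the control here, so these counts are not independent of its rule.

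The falls in the IS were in part particular to it by the same test. The ArKI effect was lower in the IS for 12 of 20 endothelial genes, 11 of 41 smooth muscle genes, 6 of 24 basal genes and 11 of 37 collagen genes. It was higher for 1 smooth muscle and 1 collagen gene, and for no endothelial or basal gene by edgeR's test, also at an unadjusted p below 0.05. In the caput 3 endothelial genes rose and 2 fell, 6 smooth muscle genes rose and 3 fell, and 3 basal genes rose and 4 fell. *Kdr* is an example, with a log2 fold change of -0.58 in the IS and 0.91 in the caput (interaction adjusted p = 1.13e-05), and *Mylk* another, with -0.36 and 0.39 (interaction adjusted p = 4.39e-06). For *Krt5* the values were -0.66 and 0.12 (interaction adjusted p = 8.95e-05). Single genes differed as much. *Cecr2* fell in the IS and had -0.28 in the caput (adjusted p = 0.44), with an interaction adjusted p of 7.51e-10. Its caput level was only 2.63 ± 0.804 CPM in WT and 2.21 ± 0.423 CPM in ArKI samples. The ArKI mean of *Cecr2* in the IS was 2.13 CPM, so the WT caput level left little room for a fall. *Stc2* and *Kcnc4* had interaction values of 3.89 and 2.82.

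Cell division, MHC class II and sperm lists held few genes that passed the interaction. Cell division genes gave 14 rises and no fall among 27 tested in the caput by edgeR's test, with none lower at an unadjusted p below 0.05. None of 28 passed the interaction in edgeR, and 3 had a lower effect in the IS at an unadjusted p below 0.05. The MHC class II genes gave 4 rises and 1 fall in the caput and an interaction that was higher in the IS for 1 gene, with *Cd74* at 0.92 in the IS and 1.02 in the caput. The late spermatid and sperm list gave 22 falls among 27 tested in the caput, and the interaction was higher in the IS for 1 gene. The interaction was higher in the IS for 7 and lower for 4 of 51 potassium channel genes, 10 and 18 of 254 solute carrier genes and 2 and 7 of 84 genes of luminal secretory families. Of all genes in the interaction, 4.23% were higher and 3.95% lower. *Adh1* (1.56 and 1.56), *Upk1b* (-1.60 and -1.68) and *Pdzk1* (-1.40 and -1.55) were among the genes with much the same value in both segments.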

How the data were processed

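Libraries of the IS of 5 WT and 5 ArKI mice were compared, and caput and testis libraries served to compare segments and to define testis-enriched genes. The deposited values are raw counts, which the authors made from uniquely mapped reads on RefSeq genes of mm10 (bcl2fastq 1.8.4 and Subread 1.5.1 per the submitters' processing notes). The paper names a stranded kit and the labels do not, and the strand setting of the counting is not given in the sources used here. Of 236 genes looked up, 59 share exon bases with another gene.

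Genes with low counts were removed by filterByExpr (minimum count 10, minimum total 15), and the rest were scaled by TMM and tested with the robust quasi-likelihood fit of edgeR 4.0.16 in R 4.3.3, with Benjamini-Hochberg adjustment. Calls were made at an adjusted p below 0.01, with or without a fold change above 2. The ROTS test of the study was not run. Depth was 5829074 to 9770625 counts. The mice are 5 a genotype per the study's methods. Alternatives were RLE factors, library size only, no filter, DESeq2 1.42.0, voom with limma 3.58.1, the replicate number as a block, an FDR of 0.05 and leaving out each sample. Equal replicate numbers correlated between -0.094 and 0.196 after the group means were removed, so they were not taken to pair the samples. The fit was tested on simulated data.

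The 43 gene lists, the segment and the named genes were chosen with earlier results of these data known. The rule named, for each list, up to 4 members with the lowest adjusted p, up to 2 with the most reads in WT and other called members. It also named the 15 genes with the most reads, the 10 largest rises and falls of at least 100 CPM, and testis-enriched genes by level. Exceptions are stated where they occur. Some genes that the rule named are not reported here. No set test was run.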

Additional observations from a re-analysis of the deposited data

Results flagged for a closer look

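In each genotype, the gap between the most extreme sample and its nearest neighbour was compared with the range of the 5 values, for 236 genes and 20 summed lists. A share above 0.71 set 31 of 512 groups apart (6.05%), where chance sets apart about 1 in 20, and all 31 were single genes.

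Among ArKI samples, replicate 3 was the highest for the ciliary genes *Kif9* (0.72), *Rsph9* (0.845) and *Spag6* (0.755) and for *Kdr* (0.731). Replicate 2 was the lowest for *Cdk1* (0.736), *Col6a4* (0.731), *Ntsr1* (0.768), *Scnn1a* (0.714) and *Tecta* (0.759). Replicate 1 was the highest for *Eng* (0.775) and *Rbfox3* (0.764), replicate 4 the highest for *Col11a1* (0.724) and *Trim29* (0.779), and replicate 5 the lowest for *Vim* (0.796).

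Among WT samples, replicate 5 was the lowest for *Abcb5* (0.753), *Col6a4* (0.799), *Crisp1* (0.723) and *Dkkl1* (0.883) and the highest for *Dnaic2* (0.844). Replicate 1 was the lowest for *Cdhr3* (0.71), *Col4a1* (0.768) and *Osbp2* (0.732) and the highest for *Gsta3* (0.859) and *Hoxc8* (0.735). Replicate 4 was the lowest for *1700009P17Rik* (0.863) and *Hoxa10* (0.73) and the highest for *Ccnb2* (0.801) and *Cst11* (0.802). Replicate 3 was the highest for *Flna* (0.743) and *Ripk3* (0.764), and replicate 2 the lowest for *Pias1* (0.745).

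The effect of the genotype differed between segments, by the interaction in edgeR, in 606 genes where it was higher in the IS and 566 where it was lower. As the log2 fold change in the IS minus that in the caput, the genes named for it had 3.89 (*Stc2*), 2.82 (*Kcnc4*), -0.74 (*Mylk*), -0.78 (*Krt5*), -1.47 (*Kdr*) and -3.42 (*Cecr2*).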

How the results depend on the processing

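Over the alternatives run, upregulated genes were the larger share of the calls past 2-fold throughout (62.2% to 70.4%). The 366 upregulated genes were 312 to 486 with single samples left out and the 177 downregulated genes 167 to 208, while 1256 rises were 982 to 1345 and 1273 falls 1080 to 1239. Without a filter on low counts 270 genes were downregulated. Scaling by library size only gave 386 upregulated and 162 downregulated genes, and 1389 rises against 1034 falls. With an FDR of 0.05, 2015 genes rose and 1965 fell. With the replicate number as a block, 376 genes were upregulated, 181 downregulated, 1325 rose and 1314 fell. Of the ArKI replicates only 3 and 5 were the best match of the WT replicate with the same number, so the pairing rests on a shared number alone. For IS and caput, with genotype and replicate number as a block, chosen after seeing the data, the ArKI effect was higher in the IS for 571 genes and lower for 571. Of 10 pairs with 1 number, correlated at -0.082 to 0.197, 5 were the best match. These values do not decide whether equal numbers mark single mice, so the counts of both fits are given. Testis-enriched genes that rose numbered 96 with a limit of 50 times and 287 with 4 times, against 205 with 10, and those that fell 9 and 107, against 44, since fewer or more genes were then tested. Of 20 cell type lists, 11 had summed levels that did not overlap between genotypes, 4 above and 7 below WT, and 6 did with means of log2(CPM + 0.5), where each gene has the same weight. Leaving *Actg2* out of the smooth muscle sum, chosen after seeing the data, moved its ratio from 0.832 to 0.694.

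Of 3944 pairs of a named gene and an alternative, 3643 kept their side of the threshold, 247 lost the call and 54 gained it. Direction turned in 6 of the 3643, from 3 genes without a call, and in 0 called pairs. The cause of lost calls was not tested. Depth limits genes near 3 counts, such as those of sperm in ArKI samples.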

Other observations

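The serpins and classical cadherins belong to no comparison above. Of 14 tested serpin genes 3 rose, and none fell by edgeR's test, DESeq2 or limma, with 1 lower at an unadjusted p below 0.05. *Serpine2*, a protease inhibitor gene, rose by 1.13 on the log2 scale, *Serpinb8* by 0.58 and *Serpinh1*, a collagen chaperone gene, by 0.26. Of 9 tested classical cadherin genes 2 rose, *Cdh20* and *Cdh24* (0.86), and 3 fell, the intestinal cadherin gene *Cdh17* (-1.33), the endothelial gene *Cdh5* (-0.47) and the placental cadherin gene *Cdh3* (-0.44). Caput principal cell genes, counted in the IS, gave 2 rises and 2 falls among 9 tested, with 1 fall without WT replicate 3 or 4 or ArKI replicate 1, 3, 4 or 5. The median log2 fold change was -0.44, and the mean of log2(CPM + 0.5) was 7.25 in WT and 6.6 in ArKI samples, with overlap, while the mean summed level was higher in ArKI samples. The sum was 63910 to 73090 CPM in WT and 63280 to 91910 CPM in ArKI samples, with ArKI replicate 3 lowest and replicate 2 highest, while replicate 3 had the highest and replicate 2 the lowest ciliary sum.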
